A study of Homo sapiens with 9 samples.

Results

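The genes described here encode the proteins of the cytosolic ribosome. They were taken by symbol, as RPL or RPS followed by a number and an optional A or X, together with RPLP0, RPLP1, RPLP2 and RPSA, and were kept where at least 10 counts were present in 3 or more libraries. This gave 76 genes of 77 symbols with that pattern and of 25370 symbols in the count table, 45 for proteins of the large 60S subunit and 31 for proteins of the small 40S subunit. RPL21 was the symbol left out, with 0 to 3 counts per library. RNA came from OCI-Ly1, an established human line of diffuse large B-cell lymphoma (DLBCL), and was sequenced after ribosomal RNA had been depleted. The 9 libraries formed 3 groups of 3, all grown for 48 h in IMDM with fetal bovine serum: cells with DMSO, cells with 150 nM JIB-04 and cells with 500 nM JIB-04. JIB-04 is a small molecule that inhibits Jumonji-domain histone demethylases, and DMSO was the vehicle. A single cell line was used, and nothing in the labels tells whether each library is a separate culture, so the p-values measure the spread between libraries, which may be technical.

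The cytosolic ribosome consists of a small subunit, which binds the mRNA and reads its codons, and a large subunit, which joins the amino acids and lets the growing chain out through a tunnel. Each protein is usually present in a single copy per ribosome, and cells make the proteins in matched amounts. Most of their mRNAs start with a pyrimidine-rich 5′ terminal oligopyrimidine (TOP) motif, through which mTORC1 and LARP1 control their translation and stability.

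Libraries held 28476845 to 57198613 counts. All 6 B cell markers and all 3 germinal centre B cell markers were expressed, among them MS4A1 with 382 ± 10.2 CPM at 500 nM and 529 ± 30.2 CPM in DMSO (CPM, the library-scaled count of edgeR with TMM factors; SD, n = 3). The markers of B cells summed to 1243 to 1299.7 CPM at 500 nM and to 1474 to 1534 CPM in DMSO, with 3 of 6 called lower and 1 called higher. The 4 T cell markers summed to 7.13 to 8.01 CPM at 500 nM and to 18.4 to 21.0 CPM in DMSO, with 3 of 4 called lower. In that comparison 25.6% of all tested genes were called lower and 26.3% higher. The 3 monocyte markers stayed under 3 CPM in sum in every library, and HBB, an erythroid marker, had no count in any library. The part of these shifts in the results below was not tested. In bulk RNA, fewer cells of a type and less RNA per cell cannot be told apart.

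After 500 nM JIB-04 most ribosomal protein genes fell, by modest amounts, although RPLP0 and RPS19 were among 3 called higher when libraries were scaled by total counts. Of the 76 genes, 66 were called lower than in DMSO, none was called higher and 10 were not called, by edgeR's quasi-likelihood test over all 15089 tested genes with Benjamini-Hochberg adjusted p under 0.05. At an unadjusted p under 0.05 there were 70 lower and 0 higher, and DESeq2 and limma-voom called none higher either. The background of that comparison was high: 52% of all tested genes were called, 26.3% higher and 25.6% lower. The median log2 fold change was -0.307 over the family and 0.012 over all tested genes. In 64 of the 76 genes the 500 nM libraries lay wholly below the DMSO libraries, as they did in 4370 of all 15089 tested genes. Counted in either direction, libraries of the groups did not overlap in 59.2% of all tested genes. RPL22 and RPL38 were called lower although their libraries overlapped, and RPL19 did not overlap but was not called. Among 2488 other genes of at least 100 CPM on average, 51.8% were called lower and 19.1% higher, with a median of -0.156, whereas 63 of the 72 ribosomal protein genes of that level were called lower, with a median of -0.306. The 500 nM libraries lay wholly below the DMSO libraries in 1381 of these 2488 genes and in 61 of the 72. The direction depended in part on the scaling. With libraries scaled by total counts, the median of all tested genes moved up by 0.139 on the log2 scale and their split became 5716 higher against 2514 lower, beside 3975 and 3868 with TMM, and of the family 51 genes were called lower and 3, among them RPLP0 and RPS19, higher.

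**Figure D1:**
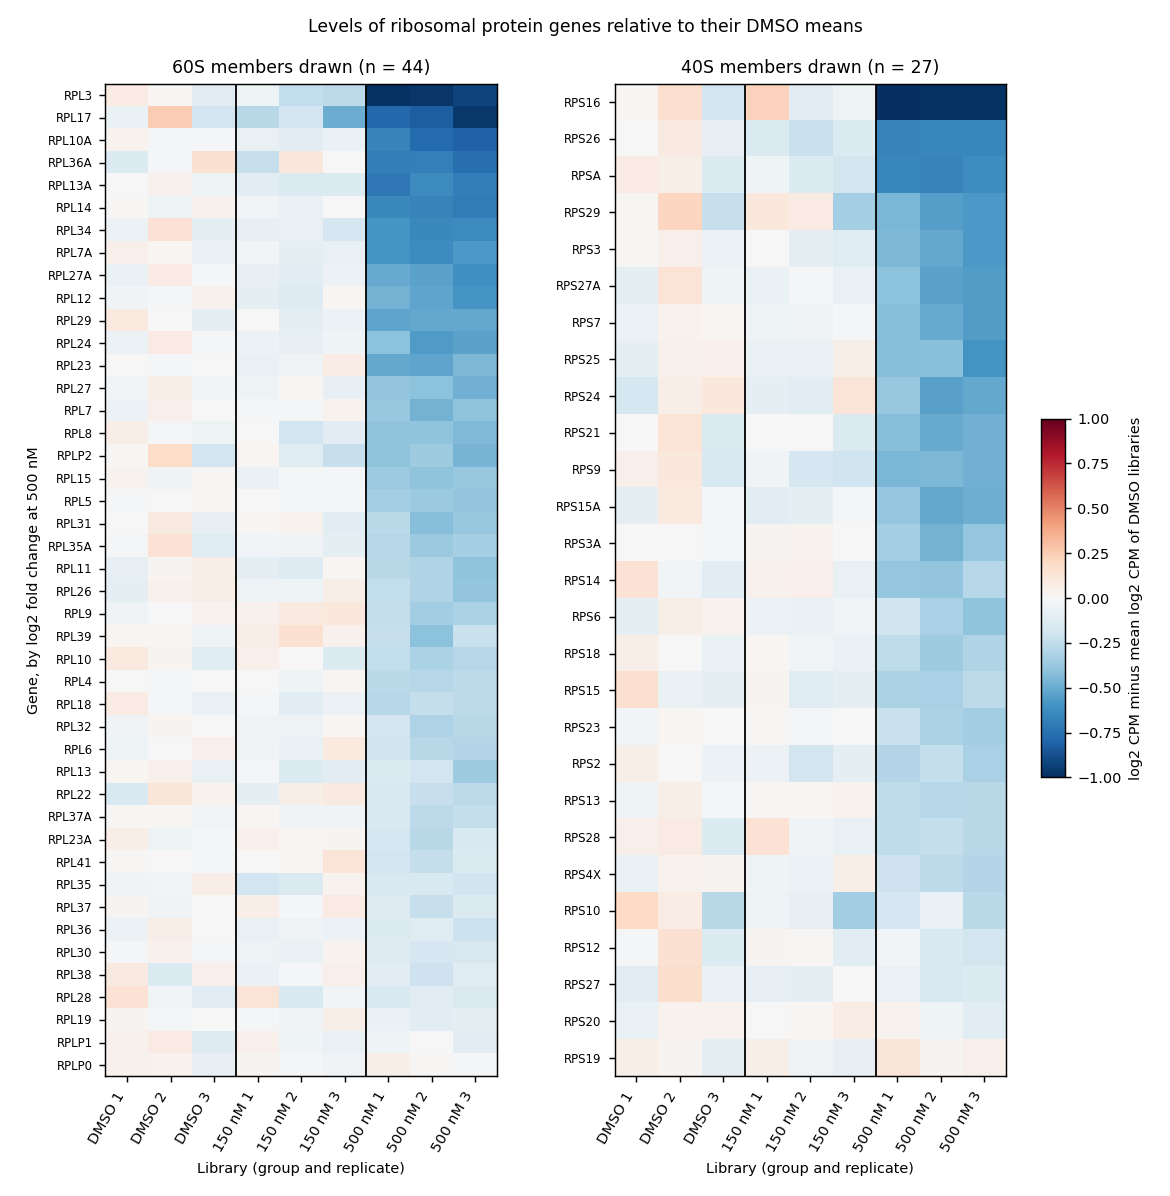
Level of 44 of the 45 60S genes and 27 of the 31 40S genes in every library, as log2 CPM minus the mean log2 CPM of its DMSO libraries (colour scale, red higher and blue lower; values beyond 1 either way take the end colour). Genes run down the page by their log2 fold change at 500 nM; the 3 columns of 500 nM libraries are blue for most genes, and the columns of 150 nM libraries stay close to DMSO. With scaling by total counts, RPLP0 and RPS19 were among 3 genes called higher at 500 nM.

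**Figure D2:**
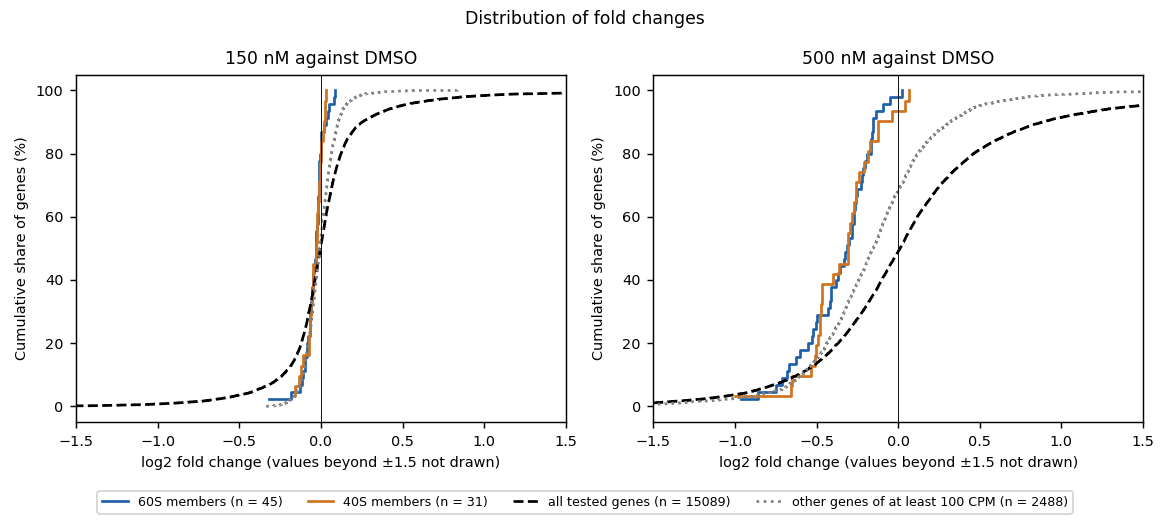
Cumulative share of genes (percent) against log2 fold change for 150 nM against DMSO and 500 nM against DMSO, with the 60S genes, the 40S genes, all tested genes and other genes of at least 100 CPM as separate lines. At 500 nM both subunits' curves lie left of the other lines, with medians of -0.314 (60S) and -0.306 (40S); at 150 nM they lie close to 0.

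Both subunits shared the fall. At 500 nM, 41 of 45 60S genes were called lower than in DMSO (median log2 fold change -0.314), and 25 of 31 40S genes were (median -0.306). With scaling by total counts, 31 60S genes (median -0.174) and 20 40S genes (median -0.167) were called lower. The share of all counts held by the family was 5.33 ± 0.094% at 500 nM and 6.02 ± 0.11% in DMSO (SD, n = 3 each), with 5.28 to 5.44% in the 500 nM libraries and 5.90 to 6.12% in the DMSO libraries, which did not overlap. It was 5.96 ± 0.10% at 150 nM. The 60S genes held 3.15 ± 0.042% at 500 nM and 3.58 ± 0.052% in DMSO, and the 40S genes 2.18 ± 0.054% at 500 nM and 2.44 ± 0.067% in DMSO. The ratio of 60S to 40S counts was 1.45 ± 0.019 at 500 nM, 1.47 ± 0.013 at 150 nM and 1.46 ± 0.027 in DMSO. The ratios of the DMSO libraries (1.434 to 1.483) overlapped with those of both doses. The 500 nM libraries (1.427 to 1.465) lay below the 150 nM libraries (1.465 to 1.488), with the nearest libraries of these groups level at the printed precision; this difference was not tested. The 95% Wilson interval of a library's share was at most 0.0176 percentage points wide, which covers counting error only.

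The steepest falls against DMSO were those of RPS16 and RPL3, and no gene of the family fell by more than 2-fold. RPS16, a 40S head protein whose tail reaches the tRNA in the P site, had 129.7, 131 and 131 CPM at 500 nM, against 264, 292 and 229 CPM in DMSO. RPL3, which lies next to the peptidyl transferase centre, had 529, 536 and 553 CPM at 500 nM, against 1114, 1066 and 978 CPM in DMSO. The 500 nM libraries of both genes lay close together and far below every DMSO library. The log2 fold change was -0.999 ± 0.08 (SE) for RPS16, with an adjusted p of 1.94e-08 by edgeR's quasi-likelihood test. It was -0.96 ± 0.06 for RPL3, with an adjusted p of 2.08e-14 by the same test. RPL10A, the protein of the mobile L1 stalk near the tRNA exit site, had 415, 387 and 376 CPM at 500 nM, against 675, 653 and 649.9 CPM in DMSO. RPL14, another protein of the 60S subunit, had 328, 323 and 316 CPM at 500 nM, against 517, 494 and 528 CPM in DMSO. Neither gene overlapped between the groups, and both fell, by -0.75 ± 0.05 and -0.67 ± 0.05 on the log2 scale. RPS26 and RPSA, which bound the mRNA exit channel on the 40S platform, fell as well. RPS26 had 166, 168 and 168 CPM at 500 nM, against 263, 280.1 and 249 CPM in DMSO. RPSA had 702, 695 and 716 CPM at 500 nM, against 1164, 1146 and 1004 CPM in DMSO. Their log2 fold changes were -0.66 ± 0.05 and -0.65 ± 0.05, with no overlap between the groups.

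The starts of the 9 genes with the lowest log2 fold change at 500 nM and of the 8 genes not called that have a RefSeq promoter entry are shown because the TOP motif sits at the first transcribed base. Each stretch holds 15 bases before the RefSeq start and 15 bases from it, on the gene's strand, and where a gene has several starts the one with the longest run is shown. Capitals mark the pyrimidine run, a C followed by at least 4 letters that are each C or T, that begins within 5 bases of the start; pyrimidines directly upstream of that C, as in RPL14 and RPL19, stay in lower case. The genes from RPS16 to RPSA fell at 500 nM, and those from RPS19 to RPS10 were not called.
RPS16: gtggcccctagCTTTCCTTTTCCggttgcg
RPL3: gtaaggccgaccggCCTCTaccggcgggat
RPL17: cctctttccctaagcagcctgaggtgagtg
RPL10A: tgcgcaagacatgctagtCTCTTTTCCggt
RPL36A: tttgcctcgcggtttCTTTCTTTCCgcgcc
RPL13A: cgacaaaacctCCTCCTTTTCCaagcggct
RPL14: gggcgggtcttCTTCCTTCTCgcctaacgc
RPS26: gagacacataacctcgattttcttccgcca
RPSA: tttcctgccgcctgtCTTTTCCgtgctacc
RPS19: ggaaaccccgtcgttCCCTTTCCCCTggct
RPLP0: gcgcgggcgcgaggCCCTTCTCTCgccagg
RPLP1: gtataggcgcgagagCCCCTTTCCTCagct
RPS12: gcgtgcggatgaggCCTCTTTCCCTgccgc
RPS27: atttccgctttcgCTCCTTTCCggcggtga
RPL19: gagcgagctctttCCTTTCgctgctgcggc
RPL28: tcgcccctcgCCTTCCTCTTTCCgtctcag
RPS10: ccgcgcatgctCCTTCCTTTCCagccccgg
In GRCh38.p14 the windows of the genes that fell are chr19:39435935-39435964 on the minus strand for RPS16, chr22:39319609-39319638 on the minus strand for RPL3, chr18:49492451-49492480 on the minus strand for RPL17, chr6:35468386-35468415 on the plus strand for RPL10A, chrX:101390996-101391025 on the plus strand for RPL36A, chr19:49487593-49487622 on the plus strand for RPL13A, chr3:40457324-40457353 on the plus strand for RPL14, chr12:56041903-56041932 on the plus strand for RPS26 and chr3:39406705-39406734 on the plus strand for RPSA. Those of the genes not called are chr19:41860240-41860269 on the plus strand for RPS19, chr12:120201097-120201126 on the minus strand for RPLP0, chr15:69452803-69452832 on the plus strand for RPLP1, chr6:132814554-132814583 on the plus strand for RPS12, chr1:153990747-153990776 on the plus strand for RPS27, chr17:39200308-39200337 on the plus strand for RPL19, chr19:55385917-55385946 on the plus strand for RPL28 and chr6:34426055-34426084 on the minus strand for RPS10. RPL17 and RPS26 fell with no run of this definition near the start, although both windows hold pyrimidine stretches that fall outside it. A C exactly at the start, followed by at least 4 pyrimidines on the transcribed strand, stood in 46 of the 62 pattern genes with a RefSeq promoter entry (74.2%), against 5.14% of 27305 genes with an entry. Runs that began within 5 bases of the start stood in 53 of the 62 (85.5%), against 25.2%. Of the 45 family members with a run exactly at a start, 38 were called lower at 500 nM, with a median log2 fold change of -0.328. Of the 16 members with an entry and no run exactly at a start, 15 were called lower, with a median of -0.344. Some of the 16, among them RPL3, RPL10A and RPL19, have a run that begins within 5 bases of the start. Long runs stood both in RPS16, which fell, and in RPS19, which was not called. Whether the run bears on the change was not tested. RPL5, RPS2, RPS15A, RPL23A, RPL23, RPL37, RPS20, RPL7, RPL30 and RPL8 were among those with no promoter entry.

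Among the 60S genes, the fall reached the peptidyl transferase centre, the L1 stalk, the 5S ribonucleoprotein and the nascent-chain tunnel, while the P stalk was divided. As 41 of all 45 60S genes were called lower, most small groups of them would hold mainly lower genes. Whether these groups differ was not tested. The 3 proteins around the peptidyl transferase centre all fell. RPL8, which contributes to the centre itself, changed by -0.41 ± 0.05 on the log2 scale, and RPL10, which shapes the tRNA site and joins late in assembly, by -0.28 ± 0.05. RPL5 and RPL11 bind the 5S RNA and, when free of the ribosome, inhibit MDM2. RPL5 had 859, 838 and 825 CPM at 500 nM, against 1073, 1085 and 1095 CPM in DMSO, and RPL11 had 787, 776 and 720.1 CPM at 500 nM, against 900.4, 972 and 993 CPM in DMSO. Both fell without overlap, by -0.37 ± 0.04 (adjusted p = 3.74e-08) and -0.33 ± 0.05 (adjusted p = 4.21e-06), by edgeR's quasi-likelihood test.

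The P stalk recruits the elongation factors. Its base protein RPL12 fell by -0.53 ± 0.05 and the stalk protein RPLP2 by -0.41 ± 0.08 on the log2 scale. RPLP2 had 496, 511 and 474 CPM at 500 nM, against 658, 742 and 573 CPM in DMSO, and the groups did not overlap. RPLP1, the partner of RPLP2 in the stalk, had 609.6, 626 and 580.4 CPM at 500 nM, against 647, 664 and 574 CPM in DMSO. RPLP0, the protein that anchors both, had 2253, 2184 and 2149 CPM at 500 nM, against 2225, 2220.2 and 2045 CPM in DMSO. The groups overlapped for RPLP1 and RPLP0, with log2 fold changes of -0.05 ± 0.05 and 0.02 ± 0.04, and RPLP0 was called higher when libraries were scaled by total counts.

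Of the 9 proteins that line the tunnel or surround its exit, 8 fell, with a median log2 fold change of -0.272. RPL4, which forms part of the tunnel wall, had 1607, 1593 and 1617 CPM at 500 nM, against 1948, 1922 and 1946 CPM in DMSO, a change of -0.27 ± 0.04. RPL39, also of the tunnel, changed by -0.28 ± 0.05, and RPL26, also at the tunnel exit, by -0.31 ± 0.05. RPL22 had 450.5, 427 and 419 CPM at 500 nM, against 450.3, 546 and 514 CPM in DMSO. RPL22 was called lower at -0.22 ± 0.06, but its highest 500 nM library was level with its lowest DMSO library, and with scaling by total counts it was no longer called. RPL19 was the tunnel-side gene not called, at -0.09 ± 0.04. RPL17 changed by -0.86 ± 0.12 but rested on 455 to 736 counts per library at 500 nM and in DMSO, and its sequence lies in a read-through gene as well, so its level is uncertain. Of the 26 60S genes outside these groups, 25 fell, with a median of -0.316 and a range of -0.71 to -0.14, and RPL28 was not called. RPL41, the shortest protein of the ribosome, fell by -0.19 ± 0.05; it was no longer called with scaling by total counts (-0.05) or when trends with transcript length were removed (0.02).

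Among the 40S genes, all 8 of the body and foot and all 3 at the mRNA entry were called lower, while 4 of 12 in the head and 2 of 8 on the platform were not called. Over all 40S genes 25 of 31 were called lower, and whether these small groups differ was not tested. RPS3, which forms part of the entry channel, had 744, 714 and 683 CPM at 500 nM, against 1026, 1052 and 974 CPM in DMSO. Its groups did not overlap, and it fell by -0.51 ± 0.05 on the log2 scale. The other proteins of the entry channel, RPS9 and RPS2, fell by -0.47 ± 0.06 and -0.28 ± 0.05. RPS6, the main ribosomal substrate of the S6 kinases, had 1532, 1402 and 1326 CPM at 500 nM, against 1644, 1831 and 1799 CPM in DMSO. The groups did not overlap for RPS6, which fell by -0.31 ± 0.05 with an adjusted p of 1.04e-05, by edgeR's quasi-likelihood test. RPS14, a platform protein needed to process 18S ribosomal RNA, fell by -0.36 ± 0.06. RPS27A, which is made as a fusion with ubiquitin, fell by -0.50 ± 0.05. The range over the body and foot was -0.49 to -0.17, and over the head it was -0.999 to 0.07, so the head held both ends of the 40S range.

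The 10 genes not called at 500 nM came from both subunits, among them RPL19, RPL28, RPLP0, RPLP1, RPS10, RPS12, RPS19, RPS20 and RPS27. RPS19, the gene most often mutated in Diamond-Blackfan anaemia, had 1071, 1003 and 1019 CPM at 500 nM, against 1024, 1002 and 923 CPM in DMSO. RPS20, a head protein, had 1249, 1185 and 1132 CPM at 500 nM, against 1165, 1252 and 1249.7 CPM in DMSO. The groups overlapped in both, with log2 fold changes of 0.07 ± 0.05 and -0.04 ± 0.05; RPS19 was called higher when libraries were scaled by total counts. RPS27, a zinc-finger protein of the platform, had 726, 676 and 687 CPM at 500 nM, against 702, 853 and 723 CPM in DMSO. Its change of -0.12 ± 0.06 had an adjusted p of 0.0693 by edgeR's quasi-likelihood test, and it was called lower with no filter on low counts (-0.125), without DMSO replicate 1 (-0.18) or without DMSO replicate 3 (-0.16). RPS10 held 4.98, 5.33 and 4.63 CPM at 500 nM, against 6.44, 5.90 and 4.61 CPM in DMSO, and its sequence also lies in a read-through gene, so its level is uncertain.

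**Figure D3:**
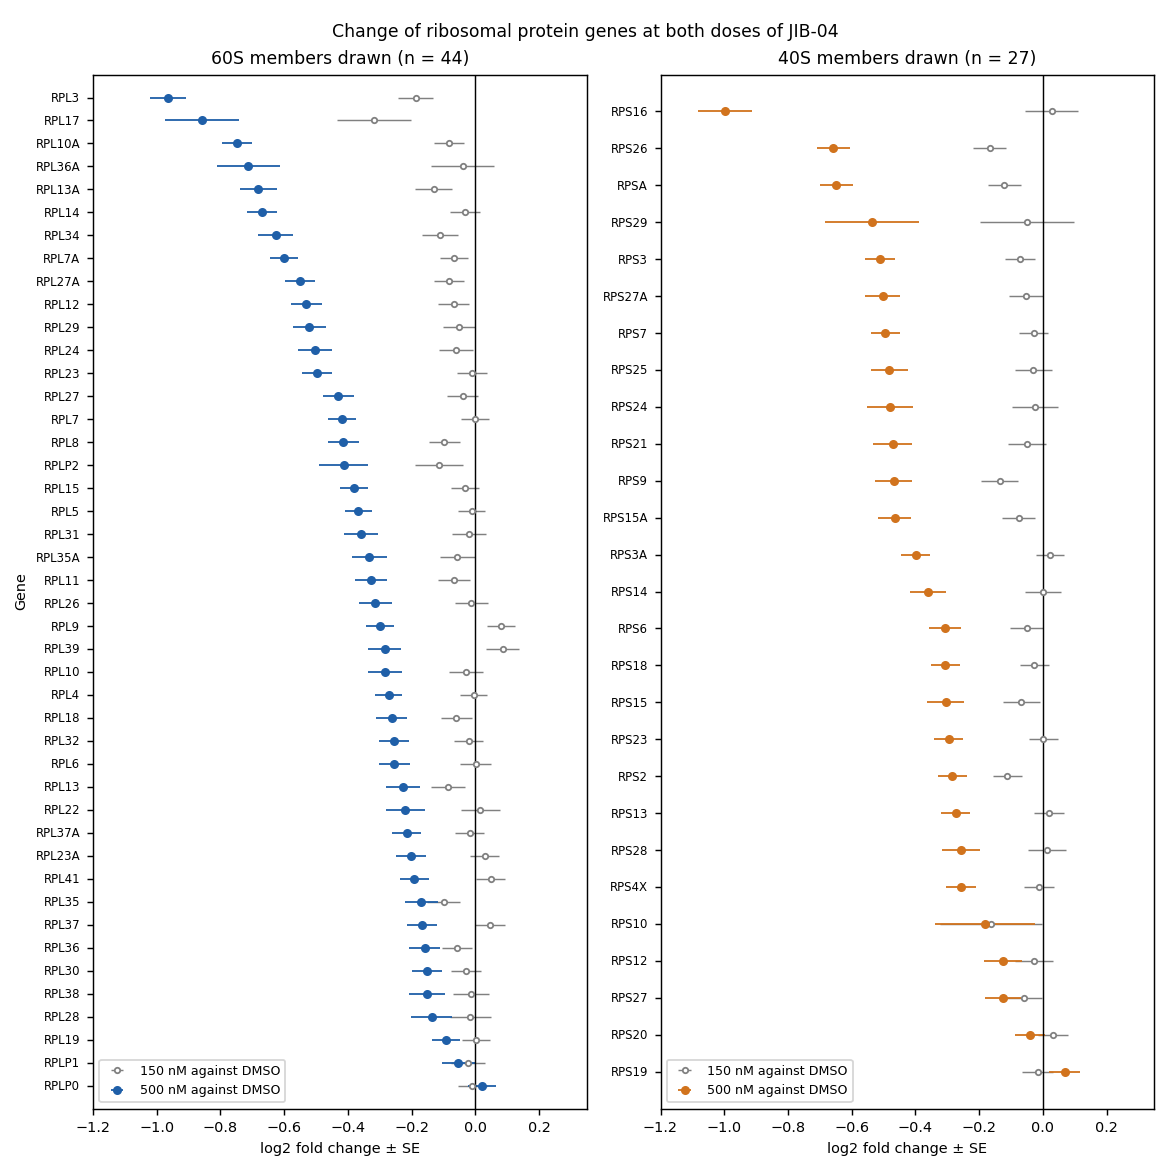
Log2 fold change ± SE of 44 of the 45 60S genes and 27 of the 31 40S genes for 150 nM against DMSO (open grey points) and 500 nM against DMSO (filled points), with genes down the page by the change at 500 nM. RPL3 (-0.96) and RPS16 (-0.999) lie at the far left at 500 nM and RPLP0 and RPS19 right of 0, while the 150 nM points range from -0.32 to 0.09. With scaling by total counts, RPLP0 and RPS19 were among 3 genes called higher at 500 nM.

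**Figure D4:**
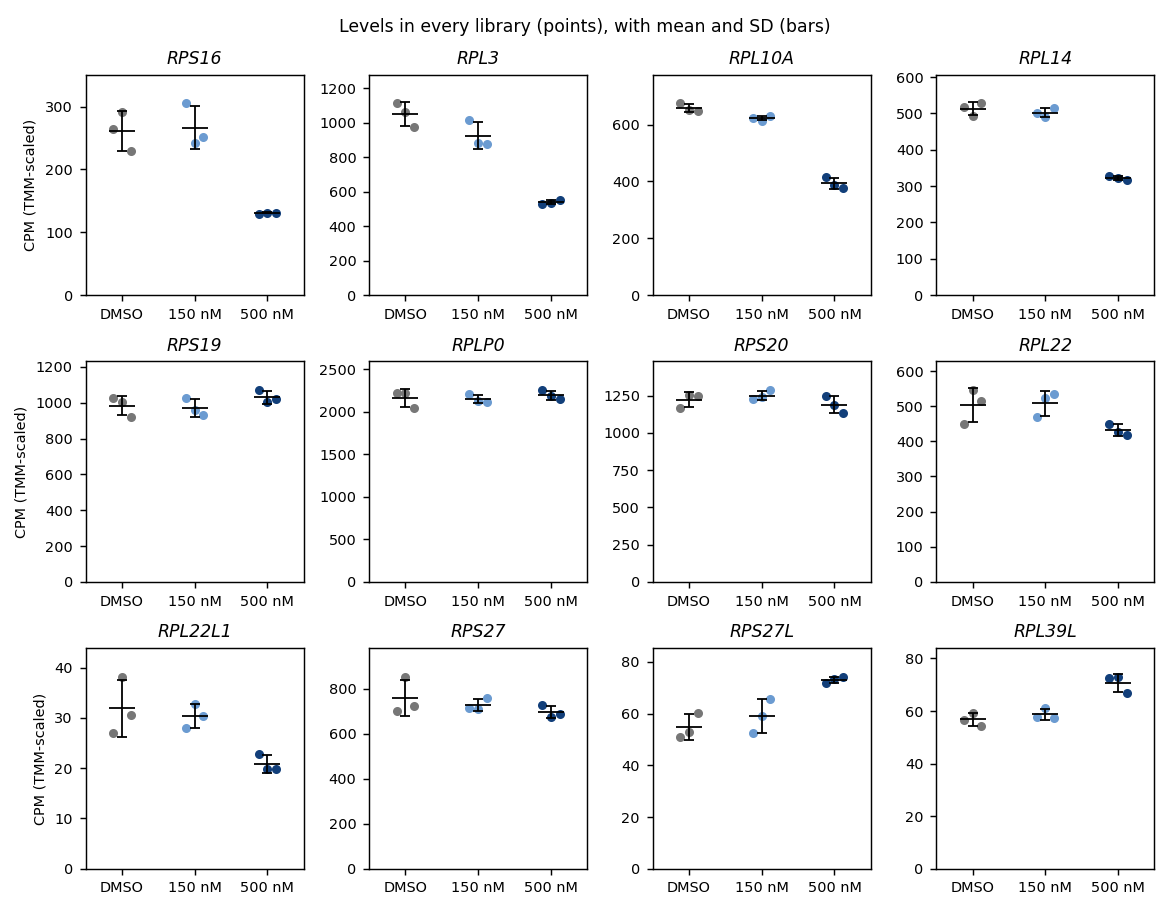
CPM (TMM-scaled, linear axis from 0) in each library of 12 genes, with group means and SD (n = 3), for DMSO, 150 nM and 500 nM. RPS16, RPL3, RPL10A and RPL14 lie lower in all 500 nM libraries than in all others, RPS19, RPLP0 and RPS20 keep overlapping levels, and of the paralogs RPL22L1 was called lower while RPS27L and RPL39L were called higher.

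The genes therefore did not all change by the same amount, and this was tested directly by scaling each library to the summed counts of the 76 genes instead of TMM, a fit added after the data were seen. Relative to the family total at 500 nM against DMSO, 17 genes were called higher, 26 lower and 33 were not called, by edgeR's quasi-likelihood test. With TMM 52% of all tested genes were called in this comparison, and their share with family scaling is not given here. As the scale is the summed counts of the members, members that differ must lie on both sides of it. The 60S genes gave 10 higher and 15 lower, and the 40S genes 7 higher and 11 lower. RPS19 stood 0.38 above the family total on the log2 scale (adjusted p = 1.86e-07), RPLP0 0.34 (adjusted p = 1.99e-07), RPS20 0.27 (adjusted p = 1.49e-05) and RPLP1 0.26 (adjusted p = 0.000118), by edgeR's test. RPS16 stood at -0.68 and RPL3 at -0.65. Without DMSO replicate 2 the number called higher was 11. At 150 nM against DMSO no gene was called relative to the family total in either direction by edgeR or limma-voom, with 5 at an unadjusted p under 0.05.

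At 150 nM no ribosomal protein gene was called against DMSO in either direction, with 7 at an unadjusted p under 0.05, and DESeq2 and limma-voom also called none. Over all tested genes 1.27% were called in that comparison, 0.954% higher and 0.318% lower. The median log2 fold change of the family was -0.03, with a range of -0.32 to 0.09, and -0.003 over all tested genes. Libraries of the groups did not overlap in 7 of the 76 genes, against 13.7% of all tested genes. RPL3 had 1016, 884 and 875 CPM at 150 nM, against 1114, 1066 and 978 CPM in DMSO. The groups overlapped, and the change of -0.19 ± 0.05 had an adjusted p of 0.105 by edgeR's quasi-likelihood test. RPS16 had 305, 242 and 252 CPM at 150 nM, which overlapped with DMSO, with a change of 0.03 ± 0.08. RPS26 had 239, 226 and 239.9 CPM at 150 nM, all below its DMSO libraries, with a change of -0.17 ± 0.05 and an adjusted p of 0.144 by edgeR's test. RPL9 and RPL39 lay at the upper end, at 0.08 ± 0.04 and 0.09 ± 0.05; neither was called. The zero depended on single libraries and on the fit. Without 150 nM replicate 1, RPL3 and RPS9 were called lower, and without DMSO replicate 3, RPL3, RPS26, RPS9 and RPSA were. With the replicate number as a block, RPL3 was called lower (adjusted p = 0.0278 by edgeR's quasi-likelihood test). It was also called lower with no filter on low counts or with GC trends removed.

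Between the doses, 63 genes were called lower at 500 nM than at 150 nM and none higher by edgeR, 39 of 45 60S genes and 24 of 31 40S genes. At an unadjusted p under 0.05 there were 66 lower and 0 higher, and DESeq2 and limma-voom called none higher either. Of all tested genes 46.5% were called in that comparison, 23.7% higher and 22.8% lower. The median log2 fold change was -0.295 over the family and 0.009 over all tested genes. In 66 of the 76 genes the libraries of the doses did not overlap, against 55% of all tested genes. RPS16 changed by -1.03 ± 0.08, just over 2-fold, RPL3 by -0.78 ± 0.06 and RPL10A by -0.67 ± 0.05. The comparisons share libraries, and their values stand side by side for that reason only. RPL9 was at 1641 ± 41.6 CPM in DMSO, 1736 ± 38.3 CPM at 150 nM and 1334 ± 54.6 CPM at 500 nM (SD, n = 3). RPL3 was at 1052 ± 68.6 CPM in DMSO, 925 ± 79.2 CPM at 150 nM and 539 ± 12.6 CPM at 500 nM. The mean of RPL3 was lower at each step up in dose, whereas that of RPL9 was highest at 150 nM; of these differences, those of 500 nM against either other group were called. With scaling by total counts 48 genes were called lower and 3, among them RPLP0 and RPS19, higher between the doses. Of all 15089 tested genes, 5257 were then called higher and 2137 lower, as this scaling moved all tested genes up by 0.122.

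Per kilobase of transcript in DMSO, RPS18 had the highest mean level (2639 CPM per kb), followed by RPL7A (2235), RPL7 (2127), RPL9 (2126) and RPS27 (2115). The lowest were RPS10 (8.78 CPM per kb), RPL17 (24.8), RPL36A (34.0) and RPL13A (92.0), each with a read-through gene or a near-identical pseudogene with which reads can be shared, so their levels are uncertain. Read-through symbols of RPL17, RPS10 and RPL36A and the pseudogene RPL13AP5 had 0 counts in all libraries. The pseudogene RPSAP58 held 26771 counts over the 9 libraries and was called lower at 500 nM against DMSO by 0.69 on the log2 scale (adjusted p = 0.000744, edgeR), beside -0.65 for RPSA, from which its reads cannot be fully told apart.

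Ribosomal proteins with symbols of another form fell as well. FAU encodes a fusion of a ribosomal protein with a ubiquitin-like protein, and GNB2L1 is the older symbol of RACK1, the scaffold on the 40S head. FAU had 271, 282 and 277 CPM at 500 nM, against 363, 349 and 325 CPM in DMSO. GNB2L1 had 1262, 1228 and 1228 CPM at 500 nM, against 1540.1, 1464 and 1467 CPM in DMSO. Neither overlapped between the groups, and their log2 fold changes were -0.32 ± 0.05 and -0.27 ± 0.04, close to the family's median.

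The paralogs, near copies of ribosomal protein genes elsewhere in the genome, did not follow one direction. Of 8 listed, 6 passed the count filter, of which 3 were called lower and 2 higher at 500 nM against DMSO. Over all tested genes 25.6% were called lower and 26.3% higher. RPS27L, a paralog of RPS27, had 71.8, 73.5 and 74.2 CPM at 500 nM, against 51.1, 52.8 and 60.4 CPM in DMSO. RPL39L, a paralog of RPL39 known for its expression in testis, had 72.6, 73.0 and 66.7 CPM at 500 nM, against 56.6, 59.4 and 54.4 CPM in DMSO. RPL22L1, the paralog of RPL22, had 22.8, 19.8 and 19.9 CPM at 500 nM, against 27.1, 38.1 and 30.6 CPM in DMSO. None of the 3 overlapped between the groups: RPS27L rose by 0.42 ± 0.08 and RPL39L by 0.32 ± 0.07, while RPL22L1 changed by -0.61 ± 0.10. RPL36AL and RPL7L1 fell, at -0.47 ± 0.06 and -0.38 ± 0.05, and RPL26L1 was not called at 0.00 ± 0.07, though it was called higher (0.19) when trends with transcript length were removed. RPS27L thus rose where RPS27 was not called, and RPL39L rose where RPL39 fell.

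Introns of ribosomal protein genes carry small nucleolar RNAs (snoRNAs), which guide the modification of ribosomal RNA and are released from the spliced-out intron. The annotation places 56 snoRNA genes inside 27 of the 76 genes, and 47 of them passed the count filter. At 500 nM against DMSO, 29 of the 47 were called lower and none higher, with a median log2 fold change of -0.72; of 177 other tested SNORA and SNORD genes, 65 were called lower and 4 higher, with a median of -0.52. In 36 of the 47 the log2 fold change was below that of the host gene. SNORD100 changed by -1.27 (adjusted p = 0.000167) inside RPS12, which was at -0.12 ± 0.06, and SNORD54 by -0.71 (adjusted p = 0.0169) inside RPS20, which was at -0.04 ± 0.05, by edgeR's test. Their mean levels were 1.501 CPM at 500 nM and 3.68 CPM in DMSO for SNORD100, and 1.495 CPM at 500 nM and 2.505 CPM in DMSO for SNORD54, so these counts are low. Reads from unspliced host transcripts also fall on these genes and cannot be told apart from the mature snoRNA.

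**Figure D5:**
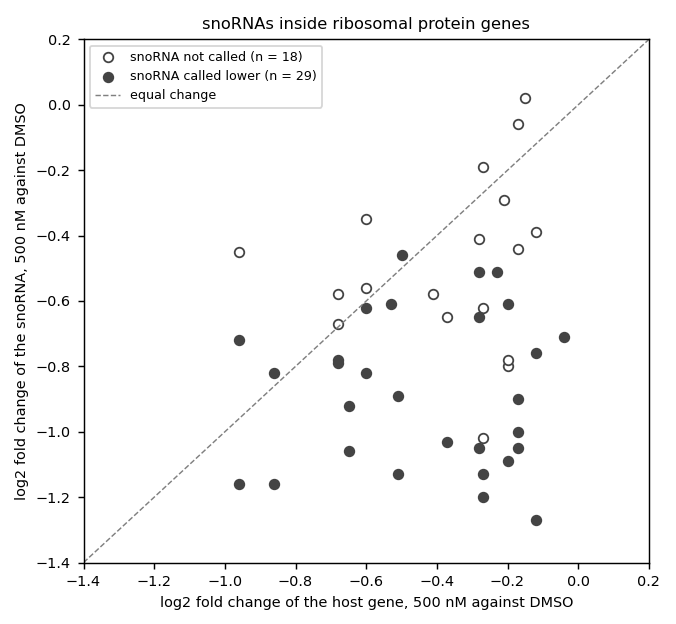
Log2 fold change at 500 nM against DMSO of 47 snoRNA genes against that of the ribosomal protein gene that holds them; filled points were called lower (n = 29), open points were not called (n = 18), and the dashed line marks equal change. Of the points, 36 lie below the line, among them SNORD100 (-1.27) in RPS12 (-0.12).

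Other genes of translation were set beside the family. Of all tested genes 25.6% were called lower and 26.3% higher at 500 nM against DMSO. Among the 2488 other genes of at least 100 CPM these shares were 51.8% and 19.1%. Of 15 genes for elongation factors and other proteins made from TOP mRNAs, 11 were called lower and 2 higher at 500 nM than in DMSO; the median change was -0.336 on the log2 scale. EEF1A1, which brings aminoacyl-tRNAs to the ribosome, had 6965, 6504 and 6598 CPM at 500 nM, against 10023, 9701 and 10019.6 CPM in DMSO, with no overlap and a change of -0.57 ± 0.04. EEF2, which moves the ribosome along the mRNA, was not called at -0.09 ± 0.05. TPT1, another TOP mRNA gene, rose by 0.33 ± 0.05; the other gene called higher, VIM, was under 1.1 CPM in each library of these groups. Of 11 chaperones and importins of ribosomal proteins, 8 were called lower and 1 higher. GRWD1, whose yeast counterpart is the chaperone of Rpl3, changed by -0.50 ± 0.07, and TSR2, the chaperone of RPS26, was not called at 0.03 ± 0.07.

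Of 15 regulators of TOP mRNAs and mTORC1, 7 were called lower and 5 higher at 500 nM against DMSO. The shares over all tested genes were 25.6% lower and 26.3% higher. LARP1, which binds TOP mRNAs, had 245, 279 and 259 CPM at 500 nM, against 406, 398 and 387 CPM in DMSO. EIF4EBP1, an mTORC1 substrate that blocks cap-dependent translation, had 156, 151 and 138 CPM at 500 nM, against 39.6, 36.6 and 34.4 CPM in DMSO. Neither overlapped: LARP1 changed by -0.60 ± 0.05 and EIF4EBP1 by 2.01 ± 0.07. EIF4EBP1 was the one gene of the list called at 150 nM, where it had 52.4, 50.2 and 51.9 CPM and a change of 0.48 ± 0.07 against DMSO (adjusted p = 3.92e-05, edgeR). The mTOR complex subunit MLST8 and the mTORC1 inhibitors TSC1 and TSC2 rose at 500 nM, by 1.07 ± 0.07, 0.64 ± 0.07 and 0.37 ± 0.07. The named genes are examples of a list that went both ways, for genes that promote mTORC1 and for genes that restrain it. Whether mTORC1 activity changed was not tested. Around the 5S ribonucleoprotein, 3 of 7 genes were called lower and 1 higher, beside 51.8% lower and 19.1% higher of other genes of at least 100 CPM. RRS1, which helps load RPL5 and RPL11, was called lower at -0.40 ± 0.07, and MDM2 was not called at 0.12 ± 0.05.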

How the data were processed

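RNA was measured in 9 libraries of OCI-Ly1 cells, grouped by the titles GEO holds. The values the authors deposited are raw counts, with gene symbols as rows. Per the submitters' processing notes, the tools were Bowtie2 2.2.6, TopHat2 2.0.14, Subread and featureCounts 1.4.6 and the builds mm10 and hg19, with no role for each. Strand setting and annotation version: not given in the sources used here. Reads of antisense or overlapping genes, pseudogenes and read-through genes cannot be told apart with certainty.

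The counts were analysed with edgeR 4.0.16 in R 4.3.3. Genes passing filterByExpr (minimum count 10, minimum total 15), 15089 in all, were scaled by TMM and fitted with a robust quasi-likelihood model on all 9 libraries. Benjamini-Hochberg adjustment ran over all tested genes, and calls were made at adjusted p under 0.05. Standard errors are the unshrunk log2 fold change over the square root of F. All adjusted p-values in the text come from this test unless another tool is named. Alternatives were DESeq2 1.42.0, limma 3.58.1 (voom), other scalings and filters, a fit of 6 libraries, the replicate number as a block, GC and length trends removed by lowess (span 0.3), and leaving out the 20 most abundant other genes or each library.

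The members, lists and tests were chosen with earlier results of these data known. The text names the 5 members with the lowest and highest log2 fold change in each comparison, a fixed list of members and paralogs, the highest and lowest per length, and, outside that rule and after their values were seen, members not called, RPL8, RPL12, the uncertain genes and examples of the lists. Some genes that were tested and counted, 5 of them members, are not reported here by name. Transcript lengths for levels per kilobase and for the correlations over members are medians over complete coding transcripts of GENCODE v29 (GRCh38), which also gave the hosted snoRNAs. The length and GC trends removed in the alternative fits used the longest GENCODE v29 transcript of each symbol instead. Start windows are from RefSeq (GRCh38.p14), matched by symbol. Coordinates in the authors' build are not used here. Counts were simulated with 50 genes changed at each fold, from genes with a mean count of at least 50, and all others unchanged. For 500 nM against DMSO with 14862 genes, 58% of genes changed 1.25-fold and 96% of those changed 2-fold were recovered. For 150 nM against DMSO with 14847 genes, these were 50% and 98%. In the data 52% of tested genes were called at 500 nM against DMSO, so the simulated recovery need not hold there. Pairs of libraries of a group differed beyond sampling noise (chi-square per degree of freedom 6.59 to 16.05), so all were kept as separate.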

Additional observations from a re-analysis of the deposited data

How the results depend on the processing

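With total-count scaling, the medians at 500 nM were -0.174 (60S) and -0.167 (40S) against DMSO and -0.177 and -0.17 against 150 nM, the log2 ratios of summed levels were -0.183 (60S) and -0.164 (40S) against DMSO and -0.172 and -0.145 against 150 nM, and 3 members were called higher in each comparison; all tested genes moved by 0.139 and 0.122. Against DMSO at 150 nM, 1 member (RPL3) was called lower without a filter, with the replicate block and with GC trends removed, and 0 to 4 when 1 library was left out; relative to the family total this was 0 to 1. With GC trends removed, the 40S median at 500 against 150 nM was -0.352. With length trends removed, RPL41 reversed to 0.023 and RPL26L1 to 0.194 at 500 nM against DMSO. Leaving out 1 library gave 0 to 1 members called higher at 500 against 150 nM (RPS19 without 150 nM replicate 1) and 11 to 19 called higher relative to the family total at 500 nM against DMSO. The cause of these changes was not tested. Deviations of same-numbered libraries had correlations of -0.052 to 0.004 where 1 of the pair was a 500 nM library. Between 150 nM and DMSO they were 0.104, 0.013 and 0.07, against -0.083 to 0.008 for different numbers. Whether the numbers pair the libraries is therefore open, and the main fit does not pair them. With the replicate block, 67 and 1 members were called lower at 500 and 150 nM against DMSO, and none higher. Between the doses 63 were called lower with the block and none higher. Of all tested genes, the block gave 209 higher and 99 lower at 150 nM against DMSO, beside 144 and 48 without it. DESeq2 called 66, 0 and 65 lower and limma-voom 67, 0 and 65, with none higher. Low counts limit RPL17, RPL36A, RPS10 and many snoRNAs.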

Other observations

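Properties of the genes that the symbols do not carry tracked little with the change at 500 nM against DMSO. Over the 76 genes, the log2 fold change had a Spearman rho of -0.19 with median transcript length, 0.15 with GC content, -0.18 with the number of named pseudogenes and -0.08 with the number of snoRNA genes inside, as descriptions across genes that share the libraries. Over 14447 tested genes the rho was 0.11 with the length and 0.15 with the GC content of the longest transcript. RPL23A (91 named pseudogenes) and RPSA (74) are the members with the most copies in the genome; RPL23A changed by -0.20 ± 0.05 and RPSA by -0.65 ± 0.05. Of the 27 genes with a snoRNA gene inside 25 fell, and of the 49 without one 41 fell.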
